A study of Mus musculus with 18 samples.

Results

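The genes described here are the ligands, receptors, inhibitors and core factors of the WNT pathway, taken as all protein-coding mouse genes whose symbols name a Wnt ligand, a frizzled receptor (Fzd), Lrp5 or Lrp6, Ror1 or Ror2, a secreted frizzled-related protein (Sfrp), a Dickkopf protein (Dkk), Wif1, an R-spondin (Rspo), Lgr4 to Lgr6, an axin, Lef1 or a Tcf7 factor. They were found by symbol alone, 55 of the 48023 genes in the count table. Immortalized murine brown preadipocytes, a single line made from brown fat with the SV40 T antigen, received vehicle (Veh) or fibroblast growth factor 6 (FGF6), a paracrine member of the FGF family, at 200 ng/ml in growth medium for 4, 8 or 24 h. Each of the 6 groups had 3 libraries, 18 in all, and every group carried the T antigen and was kept in growth medium. The labels do not say whether the libraries of a group came from separate cultures, so p-values measure the spread between these libraries, which may be technical.

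WNT proteins are secreted ligands that bind frizzled receptors together with the co-receptors Lrp5 and Lrp6, and thereby keep β-catenin from being degraded so that it can act with the transcription factors Lef1, Tcf7, Tcf7l1 and Tcf7l2. The secreted frizzled-related proteins, Wif1 and most Dickkopf proteins act outside the cell on the ligands or the co-receptors. The R-spondins, through their receptors Lgr4, Lgr5 and Lgr6, keep frizzled receptors at the cell surface. In fat precursors, Wnt10b is a classical inhibitor of adipocyte differentiation, and Wnt5a and Wnt5b signal largely without β-catenin.

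Library totals ran from 24327816 to 33471980 counts. Levels are CPM, counts scaled to library size, and 3 counts, taken as the floor, corresponded to 0.0905 to 0.126 CPM, a limit that covers counting error alone. Whether groups overlap is stated for vehicle and FGF6 libraries of the same time point. In vehicle replicate 3 at 24 h, Lars2 stood at 2445 CPM (144 to 208 CPM in the 17 other libraries) and the mitochondrial ribosomal RNAs mt-Rnr1 and mt-Rnr2 were also high. Without that library all 37 members that could be tested kept their call, and the largest shift of a log2 fold change was 0.25. Of 10 stromal markers, 9 were tested and their summed level was 6740 to 9200 CPM, with Dlk1 at 0 in every library. Under FGF6 3 of them were higher and 5 lower at 4 h, and 4 were higher and 5 lower at 8 and at 24 h. Of all genes tested, 28.6%, 32.4% and 35.9% were higher and 34.2%, 38.4% and 37.9% lower at 4, 8 and 24 h. At 24 h Pdgfra (-1.62), Pdgfrb (-2.37), Ly6a (-2.91), Col1a1 (-2.81) and Thy1 (-0.19, log2 fold changes) were lower, and Cd34 (1.38), Cd44 (1.61), Vim (0.59) and Itgb1 (0.32) higher. Of 6 brown lineage markers, 3 were tested. Prdm16 was higher with FGF6 at the 3 times (log2 0.46, 0.54 and 0.59), and Ebf2 was lower at 8 and 24 h (-0.50 and -0.38). Ucp1 had no count in 15 libraries and 0.739 ± 0.158 CPM (SD, n = 3) with FGF6 at 24 h (adjusted p = 3.34e-06). That p-value is description only, since Ucp1 could be tested through those FGF6 libraries alone. Zic1, Lhx8 and Cidea had too few counts for a test. Summed markers of other cell types were low, and several moved with FGF6. Those of epithelial cells were 0.126 to 0.804 CPM with vehicle and 0.814 to 2.57 CPM with FGF6, and those of endothelial cells 1.61 to 3.24 CPM and 2.92 to 6.16 CPM. Muscle precursor markers were 5.96 to 10.4 CPM with vehicle and 1.6 to 5.24 CPM with FGF6, with Myf5 at 0 throughout, macrophage and leukocyte markers 6.48 to 15.2 CPM and 3.36 to 18.5 CPM, and neural markers 2.57 to 4.31 CPM and 1.53 to 3.66 CPM. Of the 8 adipocyte markers, 6 were tested and 4, 6 and 6 were lower with FGF6 at 4, 8 and 24 h, with summed levels of 1460 to 1680 CPM in all vehicle libraries, 635 to 651 CPM with FGF6 at 4 h, 321 to 354 CPM at 8 h and 157 to 161 CPM at 24 h, and Lep at 0 throughout. The part of these cell states in the results on the members was not tested, and in such bulk RNA fewer cells of a kind cannot be told apart from less RNA per cell.

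Of the 55 members, 37 had enough counts for the test. The other 18 were Wnt1, Wnt3, Wnt3a, Wnt6, Wnt7a, Wnt8a, Wnt8b, Wnt9b, Fzd6, Fzd10, Ror1, Lgr5, Rspo1, Rspo4, Dkk1, Dkk4, Sfrp5 and Axin2, none of which exceeded 10 counts in any library. Wnt3a, Wnt9b, Fzd6, Fzd10 and Dkk4 were at 0 in every library, below what a floor of 3 counts can show. Axin2, a negative-feedback scaffold of the pathway and a common readout of β-catenin activity, had 4, 6 and 10 counts in the vehicle libraries at 4 h and 2, 5 and 7 with FGF6. At 8 h Axin2 had 5, 3 and 10 counts with vehicle and 7, 10 and 4 with FGF6. At 24 h Axin2 had 8, 0 and 3 counts with vehicle and 2, 4 and 6 with FGF6. Over the 3 libraries of a group this was 20 and 14 counts at 4 h, 18 and 21 at 8 h, and 11 and 12 at 24 h. The groups overlapped at each time, and counts this low cannot show a small change of Axin2. Among the 37 tested, Rspo3 and Wnt16 passed the filter through vehicle libraries alone, and Wnt2, Wnt7b and Wif1 through FGF6 libraries alone. Counts and medians over the members tested, and the p-values of these genes, are therefore given as description. Of the tested members, Rspo3, Fzd5, Lef1, Tcf7l1, Wnt5a, Wnt7b, Wnt11 and Sfrp2 share exonic bases with a gene on the opposite strand, and since the strand setting of the counting is not given in the sources used here, the counts of these genes and their partners may not be separate.

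At 4 h, 9 of the 37 members were higher with FGF6 and 17 were lower at an adjusted p under 0.05 (quasi-likelihood test of edgeR, Benjamini-Hochberg adjustment over all 15071 genes tested). Of all genes tested, 28.6% were higher and 34.2% lower at 4 h. At 8 h the members had 13 higher and 19 lower (32.4% and 38.4% of all genes), and at 24 h they had 13 higher and 18 lower (35.9% and 37.9%). A change of at least 2-fold in addition to the adjusted p was found for 6 higher and 8 lower members at 4 h, against 4.96% and 6.38% of all genes. It was found for 10 higher and 9 lower members at 8 h (7.39% and 10.9% of all genes), and for 11 higher and 13 lower members at 24 h (7.44% and 15.3%). Leaving out the 5 members that passed through 1 treatment and Wnt4, 31 remained, with 8 higher and 14 lower at 4 h, 11 and 16 at 8 h, and 11 and 15 at 24 h. At least 2-fold higher and lower were 5 and 5 of these 31 at 4 h, 8 and 6 at 8 h, and 9 and 10 at 24 h. The median log2 fold change of the 37 members was -0.166 at 4 h, -0.493 at 8 h and -0.221 at 24 h, against -0.0482, -0.0502 and -0.0218 over all genes. When libraries were scaled by their totals without TMM factors, the median of all genes at 4 h moved by -0.102 and the share of higher genes among those called fell from 45.5% to 33.3%.

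In the plot of log2 fold changes, members with the same role lay on both sides of 0 in every role. Higher at all 3 times were 8 members, Wnt5a, Fzd5, Fzd9, Lrp5, Lgr6, Dkk2, Lef1 and Axin1, against 20.4% of all genes, and 5 of them by at least 2-fold each time (Wnt5a, Fzd9, Lgr6, Dkk2 and Lef1), against 3.07% of all genes. Lower at all 3 times were 16 members, against 23.0% of all genes, and 7 of them by at least 2-fold each time (Wnt4, Wnt10b, Wnt16, Fzd2, Rspo2, Rspo3 and Dkk3), against 4.09% of all genes. Of those 7, Wnt4, Wnt16 and Rspo3 are among the 6 set apart above for how they passed the filter. No member was called higher at one time point and lower at another, and Fzd3 and Wnt2b were called at no time.

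**Figure D1:**
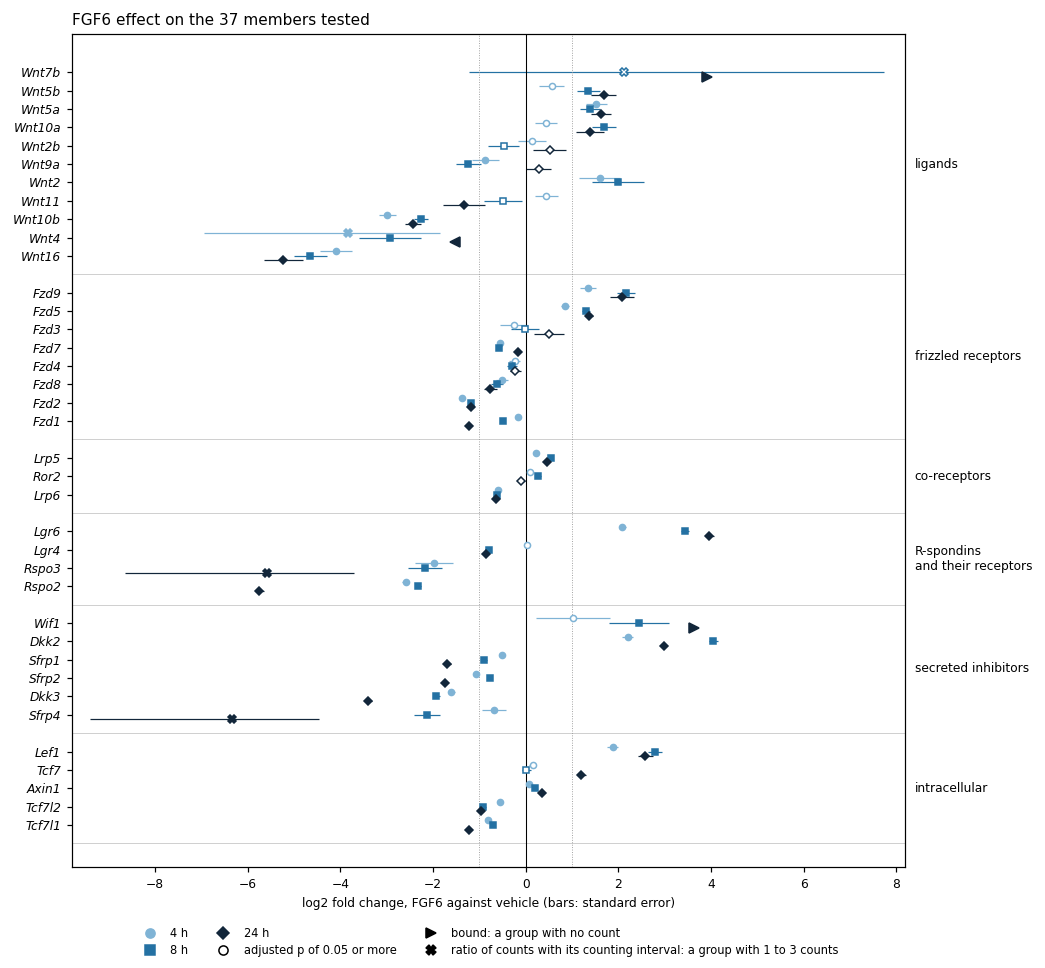
Log2 fold change of FGF6 against vehicle for the 37 members tested, by role, at 4 h (light circles), 8 h (squares) and 24 h (dark diamonds), with standard errors as bars and open symbols for an adjusted p of 0.05 or more. Triangles are bounds against a group without counts and crosses are ratios of counts with 95% counting intervals; within every role, members lie on both sides of 0, as Lgr6 (3.97 at 24 h) and Rspo2 (-5.76) do.

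**Figure D2:**
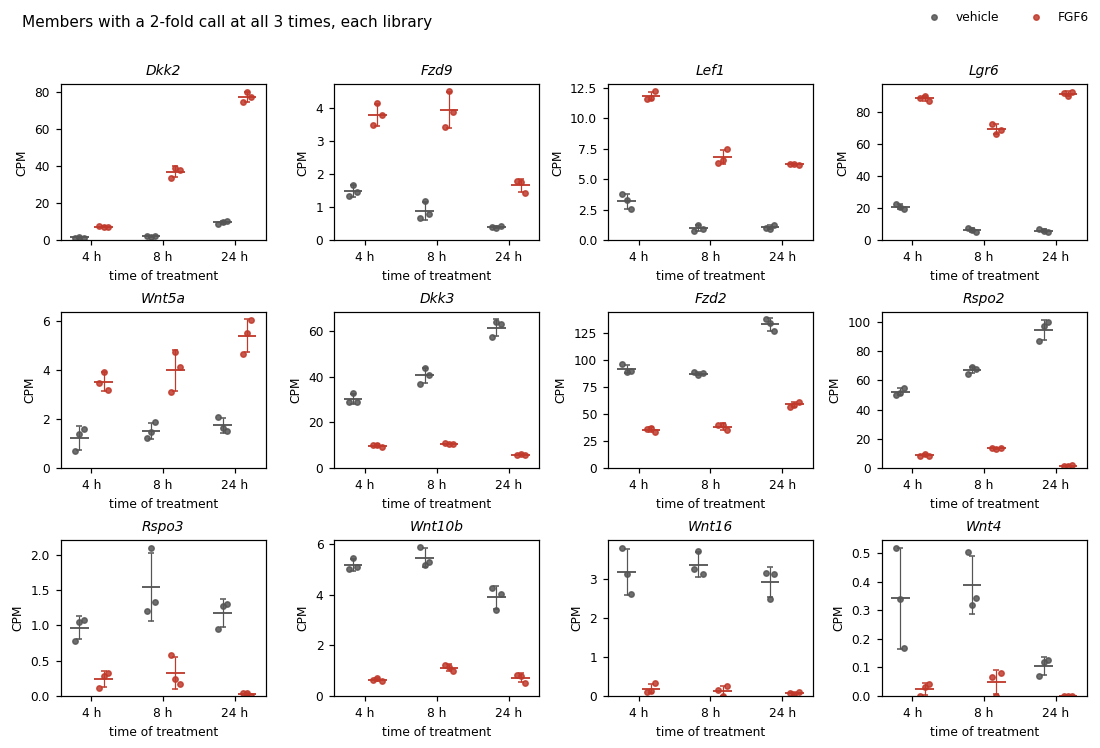
CPM of every library for the 12 members with a change of at least 2-fold at all 3 times, vehicle in grey and FGF6 in red, with the mean as a line and the SD of 3 libraries as a bar. At the same time point the vehicle and FGF6 libraries do not overlap in any panel: Dkk2, Fzd9, Lef1, Lgr6 and Wnt5a are higher with FGF6, and Dkk3, Fzd2, Rspo2, Rspo3, Wnt10b, Wnt16 and Wnt4 lower.

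Promoter sequences from RefSeq (GRCm38.p6) were at hand for 37 of the 55 members, in 45 windows. They are shown for members that rose at all times (Dkk2, Lgr6), members that fell at all times (Wnt10b, Wnt16) and members with a TCF/LEF motif in a window (Wnt5b, Wnt11), as the 250 bases before the start, 5′ to 3′ on the strand of the gene. For Wnt5b and Wnt11 only windows with a motif match are shown, and in Wnt5b start b that match is to AP-1 alone. Capitals mark a match to CTTTGAT (TCF/LEF, in Wnt11 on the opposite strand) or to TGANTCA (AP-1), searched on both strands. The windows are Dkk2 at chr3:132085042-132085291 (plus strand), Lgr6 at chr1:135105277-135105526 (minus), Wnt10b at chr15:98778151-98778400 (minus), Wnt16 at chr6:22287977-22288226 (plus), Wnt5b at chr6:119449387-119449636 (minus, start a) and chr6:119544348-119544597 (minus, start b), and Wnt11 at chr7:98834862-98835111 (plus).
Dkk2: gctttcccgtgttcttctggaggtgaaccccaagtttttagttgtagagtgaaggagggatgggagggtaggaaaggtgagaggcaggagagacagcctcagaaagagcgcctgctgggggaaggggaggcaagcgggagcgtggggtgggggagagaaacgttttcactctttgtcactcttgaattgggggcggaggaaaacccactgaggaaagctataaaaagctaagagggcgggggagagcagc
Lgr6: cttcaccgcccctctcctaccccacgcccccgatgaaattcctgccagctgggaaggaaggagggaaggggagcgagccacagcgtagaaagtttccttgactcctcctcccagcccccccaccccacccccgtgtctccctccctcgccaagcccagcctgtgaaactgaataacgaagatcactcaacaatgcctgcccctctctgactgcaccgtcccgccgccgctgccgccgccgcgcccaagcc
Wnt10b: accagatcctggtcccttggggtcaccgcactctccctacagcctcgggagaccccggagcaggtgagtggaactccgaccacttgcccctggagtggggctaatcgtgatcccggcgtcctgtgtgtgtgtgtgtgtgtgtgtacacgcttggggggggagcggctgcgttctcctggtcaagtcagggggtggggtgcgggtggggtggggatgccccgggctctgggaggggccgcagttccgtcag
Wnt16: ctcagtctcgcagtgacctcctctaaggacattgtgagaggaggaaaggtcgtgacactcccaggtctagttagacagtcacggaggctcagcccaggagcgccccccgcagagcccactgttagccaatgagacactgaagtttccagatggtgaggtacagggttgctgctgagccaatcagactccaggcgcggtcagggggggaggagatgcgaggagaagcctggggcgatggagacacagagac
Wnt5b start a: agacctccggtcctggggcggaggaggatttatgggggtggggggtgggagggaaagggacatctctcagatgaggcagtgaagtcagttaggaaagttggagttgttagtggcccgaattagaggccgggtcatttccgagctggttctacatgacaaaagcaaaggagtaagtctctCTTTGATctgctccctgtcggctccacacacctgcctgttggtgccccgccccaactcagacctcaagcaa
Wnt5b start b: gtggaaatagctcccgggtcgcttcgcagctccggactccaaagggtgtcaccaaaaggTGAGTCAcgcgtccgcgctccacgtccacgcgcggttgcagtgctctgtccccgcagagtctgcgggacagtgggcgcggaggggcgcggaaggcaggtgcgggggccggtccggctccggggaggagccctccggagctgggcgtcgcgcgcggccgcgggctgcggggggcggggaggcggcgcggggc
Wnt11: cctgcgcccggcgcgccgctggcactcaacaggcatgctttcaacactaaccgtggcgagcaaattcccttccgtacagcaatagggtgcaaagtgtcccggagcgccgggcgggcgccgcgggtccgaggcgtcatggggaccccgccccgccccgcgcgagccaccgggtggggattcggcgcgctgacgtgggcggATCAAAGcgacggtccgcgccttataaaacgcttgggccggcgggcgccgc

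Over windows of 300 bases, CTTTGAT was found in 2 of the 45 windows of members, of Wnt5b and Wnt11, and in 3.73% of all 32817 promoters. TGANTCA was found in 2 of these windows, of Wnt5b and Ror2 (7.81% of all promoters). CCGGAAG, an ETS motif, was found in 2, of Tcf7 and Fzd10 (8.86%). The windows of Dkk2, Lgr6, Wnt10b and Wnt16 held none of the 3 letter strings. Nor did a further window of Wnt5b (chr6:119467212-119467461) and of Wnt11 (chr7:98838595-98838844), which are not shown. This says only that these letters are not in the windows.

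The R-spondin receptors Lgr6 and Lgr4 moved apart under FGF6. Lgr6 (ENSMUSG00000042793, chromosome 1, 134983301 to 135105276, minus strand) read 22.4, 20.4 and 19.6 CPM in the vehicle libraries at 4 h and 88.5, 89.8 and 86.6 CPM with FGF6. At 8 h Lgr6 read 7.7, 6.58 and 4.79 CPM with vehicle and 72.3, 66.2 and 68.4 CPM with FGF6. The 24 h libraries had 6.73, 5.61 and 5.04 CPM with vehicle and 91.2, 89.8 and 92.5 CPM with FGF6. Every FGF6 library was thus above every vehicle library, and the vehicle level at 8 and 24 h was well below that at 4 h. The FGF6 effect on Lgr6 was 4.24-fold at 4 h, 10.8-fold at 8 h and 15.7-fold at 24 h, or log2 fold changes of 2.08 (SE 0.074, adjusted p = 4.05e-18), 3.43 (SE 0.088, adjusted p = 3.05e-21) and 3.97 (SE 0.09, adjusted p = 1.32e-22). It was larger at 8 h than at 4 h by 1.35 on the log2 scale (SE 0.12, adjusted p = 4.83e-09, interaction contrast in edgeR), and in vehicle cells Lgr6 itself fell by 1.70 from 4 to 8 h (adjusted p = 4.42e-13).

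Lgr4 (ENSMUSG00000050199, chromosome 2, 109917647 to 110014257, plus strand) read 71.3, 75.1 and 70.5 CPM with vehicle at 4 h and 73, 77 and 72.1 CPM with FGF6, which overlapped. At 8 h the values were 77.9, 81 and 85.8 CPM with vehicle and 48.6, 46 and 47 CPM with FGF6. By 24 h they were 71.5, 75.7 and 77.2 CPM and 42.7, 41.5 and 39.2 CPM. From 8 h on all FGF6 libraries lay below all vehicle libraries, the log2 fold change being -0.79 (SE 0.046, adjusted p = 5.49e-14) at 8 h and -0.86 (SE 0.047, adjusted p = 9.98e-15) at 24 h. Per kilobase of annotated exon, the scale used here to compare genes, Lgr4 stood above Lgr6 in vehicle cells (12.7 against 0.846 CPM per kb at 24 h) and below it in FGF6-treated cells (6.99 against 13.3 CPM per kb).

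The ligands of these receptors fell. Rspo2 (ENSMUSG00000051920, chromosome 15, 43020794 to 43170826, minus strand) read 50.04, 51.6 and 54.7 CPM with vehicle at 4 h and 8.13, 9.4 and 8.41 CPM with FGF6. At 8 h Rspo2 read 64.5, 69.1 and 67.5 CPM with vehicle and 13.7, 13.1 and 13.5 CPM with FGF6. After 24 h, vehicle libraries had 86.7, 97.3 and 99.6 CPM and FGF6 libraries 1.64, 1.29 and 2.31 CPM. The groups were far apart at each time, with the vehicle level highest and the FGF6 level lowest at 24 h. Rspo2 was 6.0-fold lower at 4 h, 4.99-fold lower at 8 h and 54.1-fold lower at 24 h, with log2 fold changes of -2.58 (SE 0.076, adjusted p = 8.92e-20), -2.32 (SE 0.07, adjusted p = 7.83e-20) and -5.76 (SE 0.097, adjusted p = 3.72e-25). The effect at 24 h differed from that at 8 h by -3.44 (SE 0.14, adjusted p = 2.08e-16) on the log2 scale.

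Rspo3, another R-spondin, was sparse. It had 24, 34 and 32 counts in the vehicle libraries at 4 h and 3, 9 and 8 with FGF6, or 0.778, 1.05 and 1.07 against 0.111, 0.287 and 0.325 CPM. At 8 h the levels were 1.2, 2.1 and 1.33 CPM with vehicle and 0.586, 0.235 and 0.164 CPM with FGF6. In the 24 h libraries they were 0.946, 1.27 and 1.3 CPM with vehicle and 0.0365, 0.0357 and 0 CPM with FGF6, the latter from 1, 1 and 0 counts. The groups did not overlap at any time, with log2 fold changes of -1.99 (SE 0.41, adjusted p = 0.00018) at 4 h and -2.17 (SE 0.36, adjusted p = 7.62e-06) at 8 h. At 24 h the ratio of scaled counts was 48.3-fold lower with FGF6, with a 95% counting interval of 13.0 to 405. Without FGF6 replicate 1 the change at 8 h was -2.90. Summed per kilobase, the R-spondins and their receptors had 25.8 ± 0.37 CPM per kb (SD, n = 3) with vehicle and 27.2 ± 0.781 with FGF6 at 4 h, 28.4 ± 0.891 and 20.8 ± 0.791 at 8 h, and 32.4 ± 1.79 and 20.7 ± 0.247 at 24 h, so that the sum was not lower with FGF6 at 4 h and was lower later.

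Ligands with a role in fat precursors moved in opposite directions. Wnt10b (ENSMUSG00000022996, chromosome 15, 98770712 to 98778150, minus strand) read 4.99, 5.44 and 5.07 CPM with vehicle at 4 h and 0.629, 0.701 and 0.609 CPM with FGF6. At 8 h Wnt10b read 5.87, 5.18 and 5.27 CPM with vehicle and 1.24, 1.14 and 0.986 CPM with FGF6. The values at 24 h were 4.24, 3.38 and 4.04 CPM with vehicle and 0.839, 0.786 and 0.514 CPM with FGF6. All FGF6 libraries were below all vehicle libraries, by 7.91-fold, 4.8-fold and 5.39-fold, with log2 fold changes of -2.98 (SE 0.17, adjusted p = 1.12e-13), -2.26 (SE 0.16, adjusted p = 1.64e-12) and -2.43 (SE 0.18, adjusted p = 5.15e-12). Of the summed ligand level per kilobase, Wnt10b made up 37.2% ± 1.53 (SD, n = 3) with vehicle at 24 h and 7.16% ± 1.85 with FGF6.

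Wnt16 (ENSMUSG00000029671, chromosome 6, 22288227 to 22298522, plus strand), a ligand best known from bone, was reduced to a few counts. It read 3.79, 3.12 and 2.6 CPM with vehicle at 4 h and 0.111, 0.128 and 0.325 CPM with FGF6. At 8 h Wnt16 read 3.25, 3.72 and 3.12 CPM with vehicle and 0.163, 0 and 0.246 CPM with FGF6. By 24 h Wnt16 stood at 3.15, 2.47 and 3.11 CPM with vehicle and 0.073, 0.0357 and 0.11 CPM with FGF6. The vehicle level was alike at the 3 times and no FGF6 library came near it. Its log2 fold changes were -4.10 (SE 0.35, adjusted p = 1.43e-10), -4.65 (SE 0.36, adjusted p = 2.26e-11) and -5.24 (SE 0.42, adjusted p = 2.86e-11), and the change at 8 h was -4.04 without FGF6 replicate 2.

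Wnt4, a ligand of kidney and gonad development, had 16, 11 and 5 counts with vehicle at 4 h and 0, 1 and 1 with FGF6. At 8 h Wnt4 had 16, 10 and 10 counts with vehicle and 2, 0 and 2 with FGF6. At 24 h Wnt4 had 2, 4 and 3 counts with vehicle and none with FGF6. No group of libraries overlapped, and the fold was 14.3 lower at 4 h (95% counting interval 3.64 to 123), 7.64 lower at 8 h and at least 2.9 lower at 24 h against the floor of 3 counts over the group. The log2 fold change at 8 h was -2.93 (SE 0.66, adjusted p = 0.00041). In none of the 6 groups did Wnt4 pass the minimum in all 3 libraries.

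The noncanonical ligand Wnt5a (ENSMUSG00000021994, chromosome 14, 28504750 to 28527448, plus strand) was higher at all times. It read 0.681, 1.39 and 1.6 CPM with vehicle at 4 h and 3.48, 3.92 and 3.17 CPM with FGF6. At 8 h Wnt5a read 1.23, 1.46 and 1.88 CPM with vehicle and 3.09, 4.74 and 4.11 CPM with FGF6. Values at 24 h were 2.07, 1.63 and 1.51 CPM with vehicle and 4.67, 5.5 and 6.02 CPM with FGF6. The groups did not overlap, with 2.88-fold, 2.61-fold and 3.09-fold higher levels, with log2 fold changes of 1.53 (SE 0.23, adjusted p = 2.28e-06), 1.38 (SE 0.22, adjusted p = 3.46e-06) and 1.63 (SE 0.21, adjusted p = 1.23e-07).

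Its close relative Wnt5b, of which the promoter windows with a motif match are shown above, read 1.14, 0.556 and 1 CPM with vehicle at 4 h and 1.55, 1.24 and 1.18 CPM with FGF6. At 8 h Wnt5b read 0.694, 0.985 and 0.89 CPM with vehicle and 2.38, 2.69 and 1.44 CPM with FGF6. At 24 h the libraries had 0.806, 0.543 and 0.715 CPM with vehicle and 2.19, 2.14 and 2.28 CPM with FGF6. The FGF6 libraries were above the vehicle libraries each time, narrowly at 4 h, where the log2 fold change of 0.57 (SE 0.27, adjusted p = 0.0713) did not pass the threshold. It passed without vehicle replicate 1 at 4 h (0.78, adjusted p = 0.0319). The changes at 8 and 24 h were 1.35 (SE 0.25, adjusted p = 3.65e-05) and 1.69 (SE 0.27, adjusted p = 3.63e-06).

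Wnt10a, a ligand of hair and tooth development that lies beside Wnt6, read 2.33, 1.58 and 1.8 CPM with vehicle at 4 h and 2.33, 3.41 and 1.87 CPM with FGF6, which overlapped. At 8 h Wnt10a read 1.26, 0.826 and 0.513 CPM with vehicle and 2.87, 3.13 and 2.46 CPM with FGF6. At 24 h Wnt10a read 0.63, 0.663 and 0.504 CPM with vehicle and 1.97, 1.29 and 1.54 CPM with FGF6. The vehicle level was lower at 8 h than at 4 h by 1.12 on the log2 scale (adjusted p = 0.00168), while FGF6 libraries at 8 h were within the range of those at 4 h. The log2 fold changes were 0.43 (SE 0.24, adjusted p = 0.115) at 4 h, 1.69 (SE 0.26, adjusted p = 3.12e-06) at 8 h and 1.39 (SE 0.31, adjusted p = 0.000288) at 24 h. Without FGF6 replicate 3 the 4 h change was 0.63 (adjusted p = 0.0348).

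Wnt11, a noncanonical ligand with a role in cell movement, read 1.07, 1.61 and 0.901 CPM with vehicle at 4 h and 1.66, 1.66 and 1.58 CPM with FGF6. At 8 h Wnt11 read 0.473, 0.413 and 0.308 CPM with vehicle and 0.326, 0.235 and 0.288 CPM with FGF6. At 24 h the vehicle libraries held 9, 15 and 13 counts (0.315, 0.452 and 0.547 CPM) and the FGF6 libraries 4, 2 and 8 counts (0.146, 0.0714 and 0.294 CPM). The groups overlapped at 4 and 8 h, and did not at 24 h. Log2 fold changes were 0.45 (SE 0.25, adjusted p = 0.126), -0.49 (SE 0.40, adjusted p = 0.281) and -1.33 (SE 0.45, adjusted p = 0.0104), and without FGF6 replicate 2 that at 24 h was -0.966 with an adjusted p of 0.0695. Without FGF6 replicate 3 it was -1.92, and at 4 h without vehicle replicate 2 it was 0.73 (adjusted p = 0.0308).

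Wnt9a, a ligand of joint formation, read 0.94, 0.711 and 0.601 CPM with vehicle at 4 h and 0.555, 0.351 and 0.325 CPM with FGF6. At 8 h Wnt9a read 1.1, 1.08 and 1.16 CPM with vehicle and 0.553, 0.403 and 0.452 CPM with FGF6. At 24 h Wnt9a read 0.666, 0.905 and 0.673 CPM with vehicle and 1.09, 0.786 and 0.881 CPM with FGF6. The groups were apart at 4 and 8 h and overlapped at 24 h. The log2 fold changes were -0.87 (SE 0.30, adjusted p = 0.015), -1.24 (SE 0.28, adjusted p = 0.00031) and 0.28 (SE 0.27, adjusted p = 0.347), and the effect at 24 h differed from that at 8 h by 1.52 (SE 0.38, adjusted p = 0.00214). The 4 h call was lost without FGF6 replicate 2 (adjusted p = 0.0773), FGF6 replicate 3 (0.0712) or vehicle replicate 1 (0.0913).

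Wnt2, a canonical ligand of lung development, had 5, 7 and 5 counts with vehicle at 4 h and 16, 22 and 9 with FGF6. At 8 h Wnt2 had 3, 3 and 2 counts with vehicle and 5, 10 and 15 with FGF6. At 24 h both groups were at or under the floor, with 1, 1 and 1 counts with vehicle and 1, 0 and 0 with FGF6. FGF6 libraries were above vehicle libraries at 4 and 8 h, with log2 fold changes of 1.60 (SE 0.44, adjusted p = 0.00281) and 2.00 (SE 0.56, adjusted p = 0.00265). Wnt7b, a ligand of lung and kidney, had no count in the vehicle libraries at 24 h and 12, 18 and 14 with FGF6, at least 15.2-fold higher against the floor (adjusted p = 1.97e-06). That p-value is description only, since Wnt7b passed the filter through these FGF6 libraries alone. It had 3 counts at most in any other library, 4.36-fold more with FGF6 at 8 h with a counting interval of 0.431 to 215. Wnt2b, another canonical ligand, lay between 0.211 and 0.65 CPM in all 18 libraries. Summed per kilobase, the ligands had 4.38 ± 0.273 CPM per kb (SD, n = 3) with vehicle and 3.19 ± 0.455 with FGF6 at 4 h, 3.98 ± 0.209 and 3.33 ± 0.324 at 8 h, and 3.06 ± 0.253 and 2.94 ± 0.152 at 24 h. The sum at 24 h thus differed by less than the spread between libraries, while Wnt5a and Wnt5b together with Wnt10a took larger shares of it with FGF6 (23.6% ± 3.44, 28.3% ± 1.11 and 22% ± 3.8) than with vehicle (7.24% ± 0.887, 8.41% ± 0.98 and 7.99% ± 1.51).

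Among the frizzled receptors, which bind the ligands, those at the highest levels were lower with FGF6 and a pair of sparser ones was higher. Fzd1 (ENSMUSG00000044674, chromosome 5, 4753839 to 4758035, minus strand), the most abundant per kilobase in vehicle cells at 4 and 8 h, read 208, 208 and 202 CPM with vehicle at 4 h and 182, 191 and 178 CPM with FGF6. At 8 h Fzd1 read 120.2, 132 and 133 CPM with vehicle and 98.6, 87.5 and 87.5 CPM with FGF6. At 24 h Fzd1 read 103, 114 and 112 CPM with vehicle and 47.5, 42.5 and 50.2 CPM with FGF6. The groups did not overlap, and both were lower at 24 h than at 4 h. Log2 fold changes were -0.17 (SE 0.051, adjusted p = 0.00622), -0.49 (SE 0.053, adjusted p = 7.54e-09) and -1.23 (SE 0.056, adjusted p = 2.76e-16). The small change at 4 h lost its call without FGF6 replicate 1 (adjusted p = 0.0551) or 3 (0.0750).

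Fzd2 (ENSMUSG00000050288, chromosome 11, 102604396 to 102608058, plus strand) read 95.8, 89.2 and 89.4 CPM with vehicle at 4 h and 36, 37.2 and 33.1 CPM with FGF6. At 8 h Fzd2 read 88.7, 85.6 and 87.6 CPM with vehicle and 40.2, 40.0 and 34.9 CPM with FGF6. At 24 h Fzd2 read 138, 134 and 126 CPM with vehicle and 56.8, 58.6 and 61.5 CPM with FGF6. The fall was of similar size at the 3 times, 2.58-fold, 2.27-fold and 2.25-fold, with log2 fold changes of -1.37 (SE 0.053, adjusted p = 2.32e-17), -1.18 (SE 0.052, adjusted p = 2.01e-16) and -1.17 (SE 0.05, adjusted p = 6.58e-17), while the level rose in vehicle cells from 8 to 24 h (log2 0.61, adjusted p = 1.71e-10).

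Fzd7 read 59.6, 61.6 and 58.5 CPM with vehicle at 4 h and 40.5, 42.3 and 40.4 CPM with FGF6. At 8 h Fzd7 read 51.4, 47.9 and 49.5 CPM with vehicle and 34.5, 33.1 and 32.6 CPM with FGF6. At 24 h Fzd7 read 47.9, 48.1 and 48 CPM with vehicle and 43, 40.4 and 44.8 CPM with FGF6. It was lower each time without overlap, by less at 24 h, with log2 fold changes of -0.54 (SE 0.044, adjusted p = 5.26e-11), -0.57 (SE 0.045, adjusted p = 2.45e-11) and -0.17 (SE 0.044, adjusted p = 0.00163). Fzd8 lay between 6.45 and 8.2 CPM with vehicle and between 3.79 and 6.18 CPM with FGF6, and was lower at the 3 times (log2 -0.51, -0.62 and -0.76). Fzd4 lay between 5.33 and 9.22 CPM and was called lower at 8 h, the log2 fold change being -0.29 (SE 0.11, adjusted p = 0.0215), a call lost without FGF6 replicate 1 (adjusted p = 0.0849) or 2 (0.0516) or vehicle replicate 2 (0.0777) or 3 (0.0502). At 4 h Fzd4 passed without vehicle replicate 3 (-0.336, adjusted p = 0.0184). Fzd3 lay between 0.336 and 1.42 CPM, and its 24 h value of 0.51 (SE 0.32, adjusted p = 0.156) passed the threshold without vehicle replicate 1 (0.861, adjusted p = 0.0374).

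Fzd5 (ENSMUSG00000045005, chromosome 1, 64730558 to 64737751, minus strand) read 11.6, 14.1 and 14.8 CPM with vehicle at 4 h and 25.9, 24.3 and 22.8 CPM with FGF6. At 8 h Fzd5 read 11.6, 12.7 and 15.9 CPM with vehicle and 34, 32.5 and 32.7 CPM with FGF6. At 24 h Fzd5 read 13.2, 12.8 and 10.5 CPM with vehicle and 30.1, 31.4 and 33.2 CPM with FGF6. All FGF6 libraries were higher, with log2 fold changes of 0.85 (SE 0.093, adjusted p = 1.66e-08), 1.31 (SE 0.091, adjusted p = 1.95e-12) and 1.37 (SE 0.093, adjusted p = 1.07e-12).

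Fzd9 (ENSMUSG00000049551, chromosome 5, 135248938 to 135251230, minus strand), a receptor with roles in bone and brain, read 1.33, 1.67 and 1.47 CPM with vehicle at 4 h and 3.48, 4.14 and 3.78 CPM with FGF6. At 8 h Fzd9 read 0.663, 1.18 and 0.787 CPM with vehicle and 3.42, 4.5 and 3.86 CPM with FGF6. At 24 h Fzd9 read 0.385, 0.362 and 0.42 CPM with vehicle and 1.79, 1.75 and 1.43 CPM with FGF6. Both groups were lower at 24 h than at 8 h and remained apart, with log2 fold changes of 1.35 (SE 0.18, adjusted p = 3.56e-07), 2.16 (SE 0.19, adjusted p = 2.97e-10) and 2.09 (SE 0.26, adjusted p = 8.62e-08).

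Per kilobase of exon, the frizzled receptors summed to 92.4 ± 1.63 CPM per kb (SD, n = 3) with vehicle and 69.6 ± 2.55 with FGF6 at 4 h, to 70.4 ± 1.56 and 48.1 ± 2.38 at 8 h, and to 77.4 ± 1.49 and 43.8 ± 2.07 at 24 h. In each case the difference was larger than the spread between libraries. Fzd5 made up 2.27% ± 0.245 of the sum with vehicle at 24 h and 10.4% ± 0.4 with FGF6. Fzd1 went from 33.7% ± 1.7 to 25.4% ± 1.11 of the sum and Fzd2 from 46.9% ± 1.72 to 36.8% ± 1.23, while Fzd7 went from 13.7% ± 0.242 to 21.5% ± 0.322. At 4 h, by contrast, the share of Fzd1 was 53.2% ± 0.228 with vehicle and 62.9% ± 0.361 with FGF6 and that of Fzd7 14.3% ± 0.327 and 13% ± 0.206, and at 8 h they were 43.4% ± 1.56 and 45.2% ± 1.42 for Fzd1 and 15.6% ± 0.819 and 15.3% ± 0.318 for Fzd7.

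**Figure D3:**
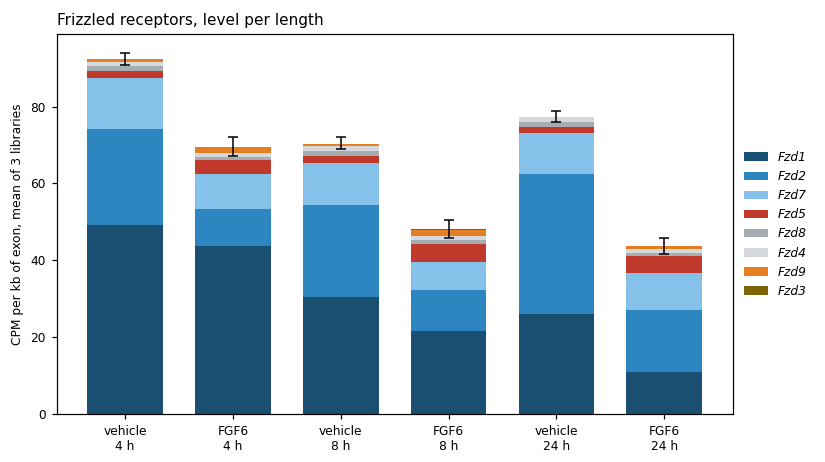
Level per length of the 8 frizzled receptors tested, stacked, as mean CPM per kb of exon over 3 libraries in each group, with the SD of the sum as a bar. The sum is lower with FGF6 at each time, 43.8 against 77.4 CPM per kb at 24 h, and Fzd1, Fzd2 and Fzd7 fill most of every column.

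The co-receptors diverged by small amounts. Lrp6 read 229.5, 226 and 213 CPM with vehicle at 4 h and 147, 144 and 153 CPM with FGF6. At 8 h Lrp6 read 209, 218 and 219.9 CPM with vehicle and 134, 143 and 142 CPM with FGF6. At 24 h Lrp6 read 206, 215 and 216 CPM with vehicle and 136, 133 and 139 CPM with FGF6. The groups stayed apart at a nearly constant distance, 1.51-fold, 1.54-fold and 1.56-fold lower, with log2 fold changes of -0.59 (SE 0.037, adjusted p = 4.66e-13), -0.63 (SE 0.037, adjusted p = 8.98e-14) and -0.64 (SE 0.037, adjusted p = 4.15e-14).

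Lrp5 read 105, 101 and 103 CPM with vehicle at 4 h and 121, 119.8 and 119.9 CPM with FGF6. At 8 h Lrp5 read 96.2, 96.4 and 93.4 CPM with vehicle and 138, 143 and 137 CPM with FGF6. At 24 h Lrp5 read 92.4, 89.2 and 91.8 CPM with vehicle and 126, 123 and 127 CPM with FGF6. It was higher in every FGF6 library, with log2 fold changes of 0.22 (SE 0.03, adjusted p = 5.62e-07), 0.55 (SE 0.03, adjusted p = 2.11e-14) and 0.46 (SE 0.031, adjusted p = 6.63e-13). In vehicle cells at 24 h Lrp6 stood above Lrp5 per kilobase (15.5 against 9.36 CPM per kb), and with FGF6 below it (9.94 against 12.9). The order with FGF6 depends on the annotated exon lengths, since the mean without division by length was 136.0 CPM for Lrp6 and 125.3 CPM for Lrp5. Ror2, a receptor of Wnt5a, lay between 12.3 and 20.3 CPM and was called higher at 8 h, the log2 fold change being 0.26 (SE 0.065, adjusted p = 0.00088).

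Of the secreted inhibitors, Sfrp2 (ENSMUSG00000027996, chromosome 3, 83766321 to 83774316, plus strand) was the most abundant member of all, and was lower with FGF6. It read 809, 797 and 791 CPM with vehicle at 4 h and 376, 388 and 369 CPM with FGF6. At 8 h Sfrp2 read 838, 909 and 886 CPM with vehicle and 536, 526 and 492 CPM with FGF6. At 24 h Sfrp2 read 1080.0, 1101 and 1054 CPM with vehicle and 297, 323 and 340.2 CPM with FGF6. No libraries overlapped, with 2.11-fold, 1.69-fold and 3.37-fold lower levels, with log2 fold changes of -1.08 (SE 0.041, adjusted p = 1.63e-17), -0.76 (SE 0.041, adjusted p = 9.86e-15) and -1.75 (SE 0.042, adjusted p = 3.59e-22).

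Sfrp1 read 28.9, 29.3 and 30.8 CPM with vehicle at 4 h and 21, 21.9 and 19.4 CPM with FGF6. At 8 h Sfrp1 read 33.1, 36 and 35.4 CPM with vehicle and 18.9, 19.3 and 17.6 CPM with FGF6. At 24 h Sfrp1 read 17.3, 16.8 and 19.4 CPM with vehicle and 5.47, 5.21 and 5.84 CPM with FGF6. The fold between the groups, though not the difference in CPM, grew at each step, and both groups were lowest at 24 h. Log2 fold changes were -0.51 (SE 0.061, adjusted p = 6.11e-08), -0.90 (SE 0.061, adjusted p = 1.05e-12) and -1.69 (SE 0.079, adjusted p = 5.1e-16).

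Sfrp4 read 1.17, 1.36 and 1.33 CPM with vehicle at 4 h and 0.814, 0.892 and 0.691 CPM with FGF6. At 8 h Sfrp4 read 1.74, 1.88 and 1.51 CPM with vehicle and 0.423, 0.471 and 0.246 CPM with FGF6. At 24 h Sfrp4 read 2.56, 1.87 and 1.39 CPM with vehicle and 0.0365, 0.0357 and 0 CPM with FGF6, the latter from 1, 1 and 0 counts. The groups were apart each time, and FGF6 libraries were near 0 at 24 h. The log2 fold changes were -0.68 (SE 0.26, adjusted p = 0.0275) at 4 h and -2.13 (SE 0.29, adjusted p = 3.53e-07) at 8 h, and the ratio at 24 h was 81.2-fold lower (95% counting interval 22.1 to 676). At 4 h the call was lost without FGF6 replicate 1 (adjusted p = 0.0636) or 3 (0.103) or vehicle replicate 2 (0.0701) or 3 (0.0611), and with DESeq2 (0.0535).

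Dkk3 (ENSMUSG00000030772, chromosome 7, 112116017 to 112159057, minus strand), a divergent Dickkopf protein, read 29.1, 32.8 and 28.9 CPM with vehicle at 4 h and 10.2, 10.1 and 9.34 CPM with FGF6. At 8 h Dkk3 read 37, 44 and 40.9 CPM with vehicle and 10.8, 10.6 and 10.6 CPM with FGF6. At 24 h Dkk3 read 57.3, 64.2 and 63.3 CPM with vehicle and 5.73, 6.11 and 5.58 CPM with FGF6. The vehicle level was highest and the FGF6 level lowest at 24 h. Dkk3 was 3.05-fold, 3.8-fold and 10.6-fold lower, with log2 fold changes of -1.61 (SE 0.073, adjusted p = 7.25e-16), -1.93 (SE 0.071, adjusted p = 4.4e-18) and -3.41 (SE 0.076, adjusted p = 1.14e-22), and the effect at 24 h differed from that at 8 h by -1.48 (SE 0.11, adjusted p = 4.19e-11).

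Dkk2 (ENSMUSG00000028031, chromosome 3, 132085292 to 132180304, plus strand), which binds the co-receptors, went the other way. It read 1.43, 1.89 and 1.4 CPM with vehicle at 4 h and 7.58, 7.3 and 6.91 CPM with FGF6. At 8 h Dkk2 read 2.24, 1.94 and 2.46 CPM with vehicle and 33.7, 39.1 and 37.8 CPM with FGF6. At 24 h Dkk2 read 8.9, 9.86 and 10.5 CPM with vehicle and 74.5, 80.0 and 77.3 CPM with FGF6. Every FGF6 library exceeded every vehicle library of the same time, and both treatments were highest at 24 h. The fold was 4.6 at 4 h, 16.6 at 8 h and 7.94 at 24 h, with log2 fold changes of 2.20 (SE 0.13, adjusted p = 6.8e-14), 4.06 (SE 0.092, adjusted p = 2.67e-22) and 2.99 (SE 0.07, adjusted p = 2.39e-22). In vehicle cells Dkk2 rose by 2.14 on the log2 scale from 8 to 24 h (adjusted p = 5.98e-14).

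Wif1, which binds the ligands, had 1, 6 and 1 counts with vehicle at 4 h and 1, 10 and 4 with FGF6, which overlapped. At 8 h Wif1 had 0, 3 and 5 counts with vehicle and 19, 13 and 10 with FGF6. At 24 h Wif1 had no count with vehicle and 16, 8 and 12 with FGF6. The last groups did not overlap, and Wif1 was 5.46-fold higher at 8 h (log2 fold change 2.45 (SE 0.65, adjusted p = 0.00197), or 3.26 without vehicle replicate 3) and at least 12.4-fold higher at 24 h. Summed per kilobase, the secreted inhibitors went from 526 ± 10.7 CPM per kb (SD, n = 3) with vehicle to 173 ± 10.5 with FGF6 at 24 h, from 388 ± 4.09 to 185 ± 4.98 at 4 h and from 429 ± 18.3 to 258 ± 10.6 at 8 h. At 24 h Sfrp2 made up 95.1% ± 0.276 of the sum with vehicle and 86.1% ± 0.658 with FGF6, and Dkk2 0.501% ± 0.0467 and 12.1% ± 0.558.

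The transcription factors that receive the signal were also split. Lef1 (ENSMUSG00000027985, chromosome 3, 131110471 to 131224356, plus strand) read 3.76, 3.28 and 2.54 CPM with vehicle at 4 h and 11.5, 11.7 and 12.2 CPM with FGF6. At 8 h Lef1 read 0.789, 1.24 and 0.89 CPM with vehicle and 6.35, 6.59 and 7.44 CPM with FGF6. At 24 h Lef1 read 1.02, 0.905 and 1.22 CPM with vehicle and 6.237, 6.25 and 6.13 CPM with FGF6. The groups did not overlap, and both were highest at 4 h. Lef1 was 3.68-fold, 6.92-fold and 5.99-fold higher, with log2 fold changes of 1.88 (SE 0.12, adjusted p = 7.94e-13), 2.79 (SE 0.16, adjusted p = 3.62e-14) and 2.58 (SE 0.16, adjusted p = 1.99e-13), and in vehicle cells it fell by 1.71 on the log2 scale from 4 to 8 h (adjusted p = 1.67e-08).

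Tcf7 read 9.53, 9.49 and 9.55 CPM with vehicle at 4 h and 10.4, 10.4 and 10.9 CPM with FGF6. At 8 h Tcf7 read 5.65, 5.63 and 5.27 CPM with vehicle and 5.86, 5.34 and 5.55 CPM with FGF6. At 24 h Tcf7 read 3.85, 4.34 and 5.04 CPM with vehicle and 9.59, 10.7 and 9.98 CPM with FGF6. The groups were close at 4 h, overlapped at 8 h and were apart at 24 h. From 8 to 24 h the mean went from 5.52 to 4.41 CPM with vehicle and from 5.58 to 10.1 CPM with FGF6. The log2 fold changes were 0.15 (SE 0.082, adjusted p = 0.117), 0.017 (SE 0.096, adjusted p = 0.877) and 1.2 (SE 0.093, adjusted p = 1.22e-11), and the effect at 24 h differed from that at 8 h by 1.19 (SE 0.13, adjusted p = 6.77e-08).

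Tcf7l1, which often acts as a repressor, read 62.5, 55.1 and 54.5 CPM with vehicle at 4 h and 35, 31.2 and 32.2 CPM with FGF6. At 8 h Tcf7l1 read 50.1, 52.4 and 52.5 CPM with vehicle and 32.6, 30.6 and 31.5 CPM with FGF6. At 24 h Tcf7l1 read 58.7, 59.4 and 56.9 CPM with vehicle and 24.2, 24 and 27.2 CPM with FGF6. It was lower in every FGF6 library, with log2 fold changes of -0.81 (SE 0.056, adjusted p = 3.1e-12), -0.71 (SE 0.057, adjusted p = 2.74e-11) and -1.21 (SE 0.058, adjusted p = 7.09e-16).

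Tcf7l2 read 26.3, 24 and 23.8 CPM with vehicle at 4 h and 17.5, 16.7 and 16 CPM with FGF6. At 8 h Tcf7l2 read 25.2, 28 and 25.9 CPM with vehicle and 14.9, 12.8 and 14.3 CPM with FGF6. At 24 h Tcf7l2 read 33.8, 33.8 and 33.1 CPM with vehicle and 16.5, 17.4 and 17.9 CPM with FGF6. Without overlap at any time, it fell under FGF6, with log2 fold changes of -0.56 (SE 0.062, adjusted p = 2.09e-08), -0.91 (SE 0.064, adjusted p = 2.02e-12) and -0.96 (SE 0.061, adjusted p = 2.59e-13). Per kilobase at 24 h, Tcf7l1 went from 14.9 to 6.41 CPM per kb, Tcf7l2 from 3.82 to 1.97, Tcf7 from 1.68 to 3.85 and Lef1 from 0.119 to 0.706.

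Axin1, the scaffold on which β-catenin is marked for degradation, read 90.4, 94.1 and 91.2 CPM with vehicle at 4 h and 100.4, 94.6 and 96.7 CPM with FGF6. At 8 h Axin1 read 83.5, 85.3 and 84.5 CPM with vehicle and 96.3, 96 and 99 CPM with FGF6. At 24 h Axin1 read 81.7, 79.4 and 77.4 CPM with vehicle and 102, 103 and 100.1 CPM with FGF6. The FGF6 libraries were higher by small amounts, with log2 fold changes of 0.081 (SE 0.033, adjusted p = 0.0353), 0.20 (SE 0.033, adjusted p = 6.74e-06) and 0.36 (SE 0.033, adjusted p = 4.72e-10). At 4 h the call was lost without FGF6 replicate 1 (adjusted p = 0.0506), vehicle replicate 1 (0.114) or vehicle replicate 3 (0.0870), and with library sizes alone the sign was opposite (-0.0204, adjusted p = 0.636).

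The FGF6 effect differed between time points by at least 2-fold for several members. It was higher at 8 h than at 4 h for 3 members (Lgr6, Wnt10a and Dkk2, against 1.05% of all genes) and lower for Sfrp4 (2.44% of all genes). From 8 to 24 h it was higher for Tcf7 and Wnt9a (1.99%) and lower for 5, Rspo2, Rspo3, Dkk2, Dkk3 and Sfrp4 (6.5%). Between 4 and 24 h it was higher for 5 members, Lgr6, Tcf7, Wnt5b, Wnt9a and Wif1 (3.41%), and lower for 7, Rspo2, Rspo3, Fzd1, Wnt11, Dkk3, Sfrp1 and Sfrp4 (9.16%). Without the 6 members set apart above for how they passed the filter, 4 were lower from 8 to 24 h, and 4 were higher and 6 lower from 4 to 24 h. Of those 6, Wif1 had no vehicle count at 24 h and Rspo3 had 2 counts in all with FGF6. Without vehicle replicate 2 at 8 h, 5 members were higher from 4 to 8 h, and without vehicle replicate 1 at 4 h, 3 were higher from 4 to 24 h. The difference between 4 and 24 h came under 2-fold for Fzd1 without FGF6 replicate 2 at 24 h (-0.997). With library sizes alone that of Fzd1 was -0.969. For Tcf7 the difference came under 2-fold without vehicle replicate 1 at 24 h (0.986). The difference lost its call for Wnt9a without FGF6 replicate 2 at 4 h (1.05, adjusted p = 0.0501) or vehicle replicate 1 at 4 h (0.957, adjusted p = 0.0674). With no filter on low counts Wnt9a lost it too (1.14, adjusted p = 0.0626). Wnt5b lost it without vehicle replicate 2 at 24 h (0.974, adjusted p = 0.0533) or vehicle replicate 1 at 4 h (0.912, adjusted p = 0.0694). The call of Wif1 was lost without vehicle replicate 2 at 4 h (adjusted p = 0.11), the difference of Wnt11 was -2.39 without FGF6 replicate 3 at 24 h, and from 8 to 24 h Dkk2 had -0.980 without vehicle replicate 2 at 8 h and Rspo3 -2.46 without FGF6 replicate 1 at 8 h. In the vehicle cells themselves, which the plot of 8 members by time shows in grey, 4 members were at least 2-fold lower at 8 h than at 4 h (Lgr6, Lef1, Wnt10a and Wnt11, 1.63% of all genes).

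**Figure D4:**
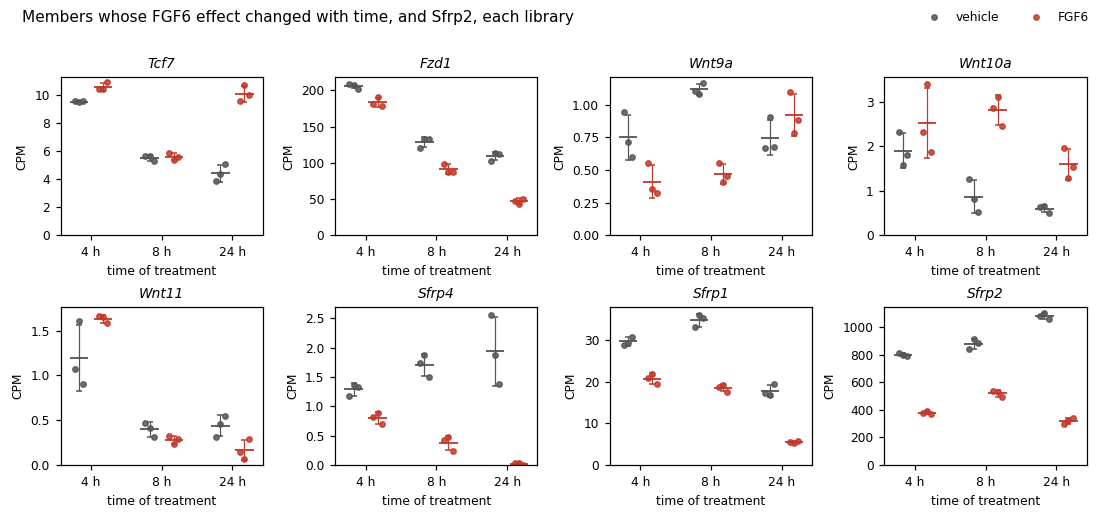
CPM of every library at 4, 8 and 24 h for 7 members whose FGF6 effect differed by at least 2-fold between time points, and for Sfrp2, the most abundant member, with vehicle in grey, FGF6 in red, the mean as a line and the SD of 3 libraries as a bar. Tcf7 libraries are apart at 24 h and overlap at 8 h, while those of Wnt9a are apart at 4 and 8 h and overlap at 24 h.

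Other genes of the pathway were described from lists of 73 genes, of which 64 were tested. At 4 h 22 were higher and 25 lower (28.6% and 34.2% of all genes tested), at 8 h 22 and 27 (32.4% and 38.4%), and at 24 h 26 and 30 (35.9% and 37.9%). Their median log2 fold changes were -0.0778, -0.0699 and -0.166, against -0.0482, -0.0502 and -0.0218 over all genes. Changes of at least 2-fold were found for 7 higher and 8 lower at 4 h (4.96% and 6.38% of all genes), 9 and 9 at 8 h (7.39% and 10.9%), and 6 and 10 at 24 h (7.44% and 15.3%). Not tested were Sp5, Tnfrsf19, Nrcam, Sost, Sostdc1, Kremen2, Cer1, Celsr2 and Celsr3.

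Of 9 genes listed as known targets of β-catenin, 6 were tested, and 4 were higher at each time, against 28.6%, 32.4% and 35.9% of all genes. Lower were 1, 1 and 2 of them, against 34.2%, 38.4% and 37.9% of all genes. The list leaves out Axin2 and was chosen with earlier results of these data known, so the counts are given as description. Ccnd1, which encodes cyclin D1, went from 50.6 ± 6.43 CPM (SD, n = 3) with vehicle to 529 ± 27.7 CPM with FGF6 at 24 h (log2 fold change 3.39, adjusted p = 2.04e-23, and 2.15 and 3.18 at 4 and 8 h). Myc, a growth regulator, had log2 fold changes of 2.03, 2.31 and 1.74, Fosl1, a subunit of AP-1, 1.93, 2.56 and 2.19, and the hyaluronan receptor Cd44 1.21, 1.71 and 1.61. These 4 genes are also known to respond to growth factor signals that do not pass through β-catenin. Which signals their levels followed here was not tested. Ccn4, a matricellular protein, was not called at 4 and 8 h (log2 0.054 and -0.053) and was lower at 24 h (-0.18, adjusted p = 0.00163). Ccn5, another secreted matricellular protein, went from 275 ± 6.26 to 6.55 ± 1.67 CPM at 24 h and was lower each time (log2 -2.35, -3.02 and -5.39).

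Of 12 nuclear partners, 3, 3 and 2 were higher, against 28.6%, 32.4% and 35.9% of all genes. At each time 7 were lower, against 34.2%, 38.4% and 37.9% of all genes. Bcl9l, which links β-catenin to the Pygo proteins, went from 225 ± 14.2 to 65.4 ± 2.33 CPM at 4 h (log2 -1.78), and Pygo1 had log2 fold changes of -1.09, -1.36 and -1.12. The co-repressors Tle1 and Tle2 moved apart, with 1.04, 1.06 and 0.42 for Tle1 and -1.82, -2.17 and -2.60 for Tle2. In the cytoplasmic core of 22 genes, 8 were higher and 5 lower at 4 h (28.6% and 34.2% of all genes). At 8 h 9 were higher and 7 lower (32.4% and 38.4%), and at 24 h 11 and 8 (35.9% and 37.9%). Csnk1e, a casein kinase, rose (log2 0.69, 1.03 and 1.13) and Apc2 fell (-0.68, -1.07 and -1.52). Ctnnb1, which encodes β-catenin, had -0.20, -0.29 and -0.20.

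Of 10 further extracellular inhibitors, 6 were tested, with 2 higher at each time and 3, 2 and 4 lower. Of all genes, 28.6%, 32.4% and 35.9% were higher and 34.2%, 38.4% and 37.9% lower at these times. Apcdd1 and Trabd2b, a protease that acts on Wnt proteins, were higher (log2 1.02, 1.32 and 0.48 for Apcdd1 and 1.11, 1.65 and 0.59 for Trabd2b), and Igfbp4 was lower (log2 -1.08, -2.23 and -2.96). Wls, which carries Wnt proteins to the cell surface, went from 403 ± 15.7 to 214 ± 7.96 CPM at 24 h (log2 -0.91) and was lower at 4 and 8 h too (-0.48 and -0.64), and Porcn, which adds the lipid that Wnt proteins carry, was lower at 8 h alone (-0.62, adjusted p = 0.000136). Notum, a lipase that inactivates Wnt proteins, had 0.773 ± 0.631 and 0.291 ± 0.205 CPM at 24 h (log2 -1.32, adjusted p = 0.0175), a call lost without vehicle replicate 3 (-0.539, adjusted p = 0.317), FGF6 replicate 1 (0.114) or FGF6 replicate 2 (0.0546), while the value was -1.96 without FGF6 replicate 3. The ligases that remove frizzled receptors and are held back by R-spondins moved apart. Znrf3 was higher at the 3 times (log2 0.69, 0.89 and 0.69), while Rnf43, a sparse gene with 0.523 ± 0.124 CPM with vehicle and 0.138 ± 0.0924 CPM with FGF6 at 4 h, was lower at 4 and 8 h (log2 -1.95, adjusted p = 0.000335, and -1.08, adjusted p = 0.0086) and not called at 24 h (-0.35, adjusted p = 0.353). Of 13 other receptors and planar polarity genes tested, 4, 3 and 6 were higher and 7 were lower at each time, among them Prickle1 (log2 -1.18, -1.17 and -0.74) and Daam2, with log2 values of -0.30, -1.43 and -2.56. The shares of all genes to set beside these counts are those given above for the inhibitors. Wls, Porcn, Ctnnb1, Ccn4, Znrf3 and Rnf43 were named for their role in the pathway after their values were seen.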

How the data were processed

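Total RNA of 18 libraries was sequenced on an Illumina HiSeq. The authors aligned reads with STAR to GRCm38 and deposited raw counts per gene from featureCounts of Subread with GENCODE genes, and tool versions, strand setting and treatment of multiply mapped reads are not given in the sources used here.

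Libraries were grouped by treatment and time as in the labels. Genes with enough counts by edgeR's filterByExpr (minimum count 10) were fitted in 1 quasi-likelihood model over all 18 libraries (edgeR 4.0.16, R 4.3.3) with TMM factors, and p-values were Benjamini-Hochberg adjusted over 15071 genes. Standard errors (SE) are those implied by the F statistic. CPM were taken over the TMM-scaled totals. Exon lengths were the union of all exons of a gene in the GRCm38 annotation, which need not be the length expressed in these cells. A fold against a group without counts was set against a floor of 3 counts over the group, and with 1 to 3 counts the ratio of scaled counts was given with its exact 95% counting interval. DESeq2 1.42.0 and limma 3.58.1 with voom served as alternatives, and the steps were tested on simulated data.

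Values in every library are given for members with a change of at least 2-fold at any time and for those with a mean of at least 20 CPM, and other pathway genes are named where they changed at least 2-fold at any time with a mean of at least 1 CPM. The members and lists were chosen with earlier results of these data known.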

Additional observations from a re-analysis of the deposited data

Results flagged for a closer look

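The effect of FGF6 differed between time points by at least 2-fold for the members below (interaction contrast in edgeR, adjusted p under 0.05). Of all genes, by the same rule, 1.05% had a higher and 2.44% a lower effect from 4 to 8 h. The shares were 1.99% and 6.5% from 8 to 24 h, and 3.41% and 9.16% from 4 to 24 h. Among them, Rspo3 and Wif1 passed the filter through libraries of a single treatment, so their differences are given as description. Groups of 3 libraries are too small for a test of single libraries that stand apart.

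Of the R-spondins and their receptors, the log2 fold change of Lgr6 was higher by 1.35 at 8 h and by 1.88 at 24 h than at 4 h. For Rspo2 the effect at 24 h differed from that at 8 h by -3.44 and from that at 4 h by -3.17. For Rspo3 the differences were -3.19 and -3.38, with 2 counts in all in the FGF6 libraries at 24 h.

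Of the ligands, Wnt10a gained 1.26 from 4 to 8 h, and Wnt5b gained 1.12 from 4 to 24 h. Wnt9a differed at 24 h by 1.52 from 8 h and by 1.15 from 4 h, and Wnt11 by -1.78 between 24 and 4 h.

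Of the receptors and transcription factors, Fzd1 differed by -1.06 between 24 and 4 h. Tcf7 differed at 24 h by 1.19 from 8 h and by 1.05 from 4 h.

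Of the inhibitors, Dkk2 gained 1.86 from 4 to 8 h and differed by -1.07 between 24 and 8 h. Dkk3 differed at 24 h by -1.48 from 8 h and by -1.80 from 4 h, and Sfrp1 by -1.18 between 24 and 4 h. Sfrp4 differed by -1.45 between 8 and 4 h, by -3.97 between 24 and 8 h and by -5.43 between 24 and 4 h, with 2 counts in all in the FGF6 libraries at 24 h. Wif1 differed by 5.64 between 24 and 4 h, a fitted value that depends on the prior count because no vehicle library had a count at 24 h.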

How the results depend on the processing

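Of the values for single genes, 1409 kept their direction and side of the threshold over the alternatives that kept all libraries, 8 lost their call, 4 gained one and 1 reversed, which was Axin1 at 4 h with library sizes alone (-0.0204). With 1 library left out, 1215 kept their call, 28 lost it and 5 gained it. Of the counts, 196 stayed within 1.5 times with all libraries and 178 with 1 left out. An adjusted p under 0.25 gave 15 members higher at 4 h. That looser threshold by construction calls at least as many of all genes too. Their share at 0.25 is not given here, so this count is description only. Requiring 10 counts in every library, which by construction drops sparse members, gave 5, 4 and 8 members at least 2-fold lower at 4, 8 and 24 h, and for the differences of the effect 0 lower from 4 to 8 h, 1 higher from 8 to 24 h, and 3 higher and 4 lower from 4 to 24 h.

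With 1 library left out, 8 to 10 members were higher and 14 to 17 lower at 4 h, 13 and 18 to 19 at 8 h, and 13 to 14 and 17 to 18 at 24 h. Members with a larger effect by at least 2-fold numbered 3 to 5 from 4 to 8 h and 3 to 6 from 4 to 24 h. Other alternatives gained a call at 4 h for Fzd4 (library sizes alone, adjusted p = 0.0122, and upper-quartile factors, 0.029), Wnt5b (0.0478 with 10 counts in every library) and Wnt7b (0.0499 with limma and voom), and lost that of Axin1 with upper-quartile factors (0.55), Sfrp4 with no filter (0.054) and Fzd4 at 8 h with DESeq2 (0.0513). The causes were not tested.

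With the replicate number as a block, 9 members were higher and 17 lower at 4 h, 13 and 19 at 8 h, and 13 and 18 at 24 h, as without it. Same-numbered vehicle and FGF6 libraries did not deviate together (correlations across genes of -0.05 to 0.045), so the numbers were not taken as pairs. Members at or below a few counts per library limit what can be seen of Wnt2, Wnt4, Wnt7b, Wif1 and Axin2.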
